A study of Homo sapiens with 26 samples.

Results

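The genes of activator protein 1 (AP-1) and the immediate early genes usually measured with them were followed through 52 h of acidic or neutral culture of U2OS cells. The 10 genes are FOS, FOSB, FOSL1, FOSL2, JUN, JUNB, JUND, EGR1, IER2 and IER3, found by their symbols among the 19704 gene symbols of the expression table. Each of the 10 symbols was on the table, and 9 of the 10 genes had a mean of at least 1 FPKM over all libraries and were tested. IER3 lay below that level and is described only. FOSB passed it only through its values at pH 6.3, so its place among the tested genes already depends on the difference described below.

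AP-1 is a dimer of basic leucine zipper proteins in which a FOS protein pairs with a JUN protein, or JUN proteins pair with each other, and binds short palindromic DNA sites. FOS, FOSB, JUN, JUNB, EGR1, IER2 and IER3 are classic immediate early genes, which are transcribed within minutes of a stimulus without new protein synthesis. For many such genes, though not all, this goes through serum response factor (SRF), its ternary complex partners and CREB at their promoters. FOSL1 and FOSL2 come later in such a response and their proteins last longer. In bone, FOS and its relatives are known for their roles in osteoblasts, osteoclasts and osteosarcoma.

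U2OS is an established human osteosarcoma line, and the cells used carry luciferase under the Arntl promoter, a circadian clock reporter. The 26 libraries formed 2 groups of 13, medium of pH 7.4 and medium of pH 6.3, with a single library of each pH every 4 h, from 4 h through 52 h. Both media were buffered with HEPES and PIPES, 25 mM each, and held 5% FBS and dexamethasone at 0.1 µM, a synthetic glucocorticoid given to both groups at the start, and both groups were kept sealed at atmospheric CO2. One set of plates gave the 7 times from 28 to 52 h and a second set, treated a day later, gave the 6 times from 4 to 24 h, so early time and set of plates cannot be told apart. Neither medium was sampled more than once at a time. Every SD and p-value below therefore measures the spread over times, in which real changes with time and technical spread are mixed. The serum and dexamethasone arrived with the medium change in both groups, and no library was taken before it.

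Values are FPKM as deposited (fragments per kilobase of transcript, scaled by mapped fragments). The spacing of the lowest values gave an estimated depth, in M (mega) of fragments, of 20.04 to 36.08 M in 24 libraries. The pH 7.4 library of 12 h was estimated at 9.83 M and the pH 6.3 library of 8 h at 11.35 M. This takes the smallest common step between low values as 1 fragment. If a step were several fragments, all depths would be that many times larger and the FPKM of 1 fragment that many times smaller. In the library of pH 7.4 at 28 h the deviation of genes from their means correlated across genes with transcript GC content at r = 0.65, in pH 6.3 at 20 h at 0.58, in pH 7.4 at 44 h at -0.55 and in pH 7.4 at 48 h at -0.64. Of the markers of mesenchymal cells and osteoblasts, VIM, SPARC, FN1, COL1A1 and RUNX2 were at 16.7 FPKM or more in all 26 libraries, while COL1A2 was below 1 FPKM in 17. The late osteoblast marker SP7 was listed at 0 in all 26 and BGLAP stayed below 1 FPKM. The leukocyte markers PTPRC, CD3E and CD14 and the endothelial markers CDH5 and VWF were below 1 FPKM in all 26. LCP1, which tumour lines also express, averaged 23.1 FPKM in neutral and 9.14 FPKM in acidic medium, and the epithelial genes KRT8 111 and 77.3 FPKM and EPCAM 6.10 and 3.66 FPKM. The endothelial marker PECAM1 was below 1 FPKM in 21 libraries, with means of 1.03 and 0.458 FPKM, and the osteoblast gene ALPL averaged 3.42 and 1.07 FPKM. The epithelial genes CDH1 and KRT19 were below 1 FPKM in 23 and 26 libraries, while CLDN4 averaged 3.62 and 0.805 FPKM. The part of these differences in the results below was not tested. On the opposite strand FOSB overlaps ERCC1, JUNB overlaps HOOK2, and FOSL2, IER2 and IER3 overlap noncoding genes. The library kit keeps strand, but the strand setting of the authors' counting is not given in the sources used here.

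Of the 10 genes, 8 had a RefSeq promoter window (GRCh38.p14, 250 bases before to 50 bases after the start). Stretches from the windows of FOS and FOSB are printed because these 2 genes were higher at pH 6.3 at all 13 times, and one from EGR1 because its 2 media crossed most widely. Capitals mark matches to the CREB core site TGACGT (or ACGTCA on the other strand), the TATA box TATAAA and the SRF-binding CArG box, searched as CC, 6 bases of A or T, and GG.
FOS (chr14:75278578-75278773, plus strand): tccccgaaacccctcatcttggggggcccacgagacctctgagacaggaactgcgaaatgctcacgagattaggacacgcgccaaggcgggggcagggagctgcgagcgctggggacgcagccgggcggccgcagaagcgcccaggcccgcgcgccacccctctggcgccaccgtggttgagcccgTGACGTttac
FOSB (chr19:45467746-45467994, plus strand): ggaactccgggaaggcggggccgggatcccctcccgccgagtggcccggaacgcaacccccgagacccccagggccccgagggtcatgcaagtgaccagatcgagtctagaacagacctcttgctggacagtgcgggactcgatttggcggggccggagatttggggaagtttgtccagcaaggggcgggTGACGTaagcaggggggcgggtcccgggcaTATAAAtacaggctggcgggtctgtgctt
EGR1 (chr5:138465229-138465478, plus strand): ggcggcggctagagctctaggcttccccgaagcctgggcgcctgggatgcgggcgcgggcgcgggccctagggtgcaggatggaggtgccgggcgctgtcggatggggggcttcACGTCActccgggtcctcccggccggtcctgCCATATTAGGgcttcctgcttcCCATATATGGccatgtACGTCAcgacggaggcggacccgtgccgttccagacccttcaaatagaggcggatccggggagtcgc
The core site TGACGT was searched on both strands of the whole 300-base windows. It was in those of FOS (at -64 from the RefSeq start), FOSB (-60), FOSL2 (-66), JUND and EGR1 (-136 and -67), that is 5 of 8, and in 7.97% of 34943 RefSeq promoters. A CArG box was in the EGR1 window alone among the 8, at 2 places (-105 and -83), and in 1.30% of all promoters. TATAAA, on the gene's strand, was in the windows of FOS (-33, outside the printed stretch), FOSB (-30) and JUNB (-31), and in 7.35% of promoters. The AP-1 site TGANTCA was in the FOSL2 window only, and in 7.72% of all promoters. The full site TGACGTCA, which contains the core site, was in the JUND window only, and in 1.84% of all promoters. These are matches of letters and not measured sites. Sites more than 250 bases before the start lie outside the windows and were not searched, so a window without a match does not mean a gene without the site.

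**Figure D1:**
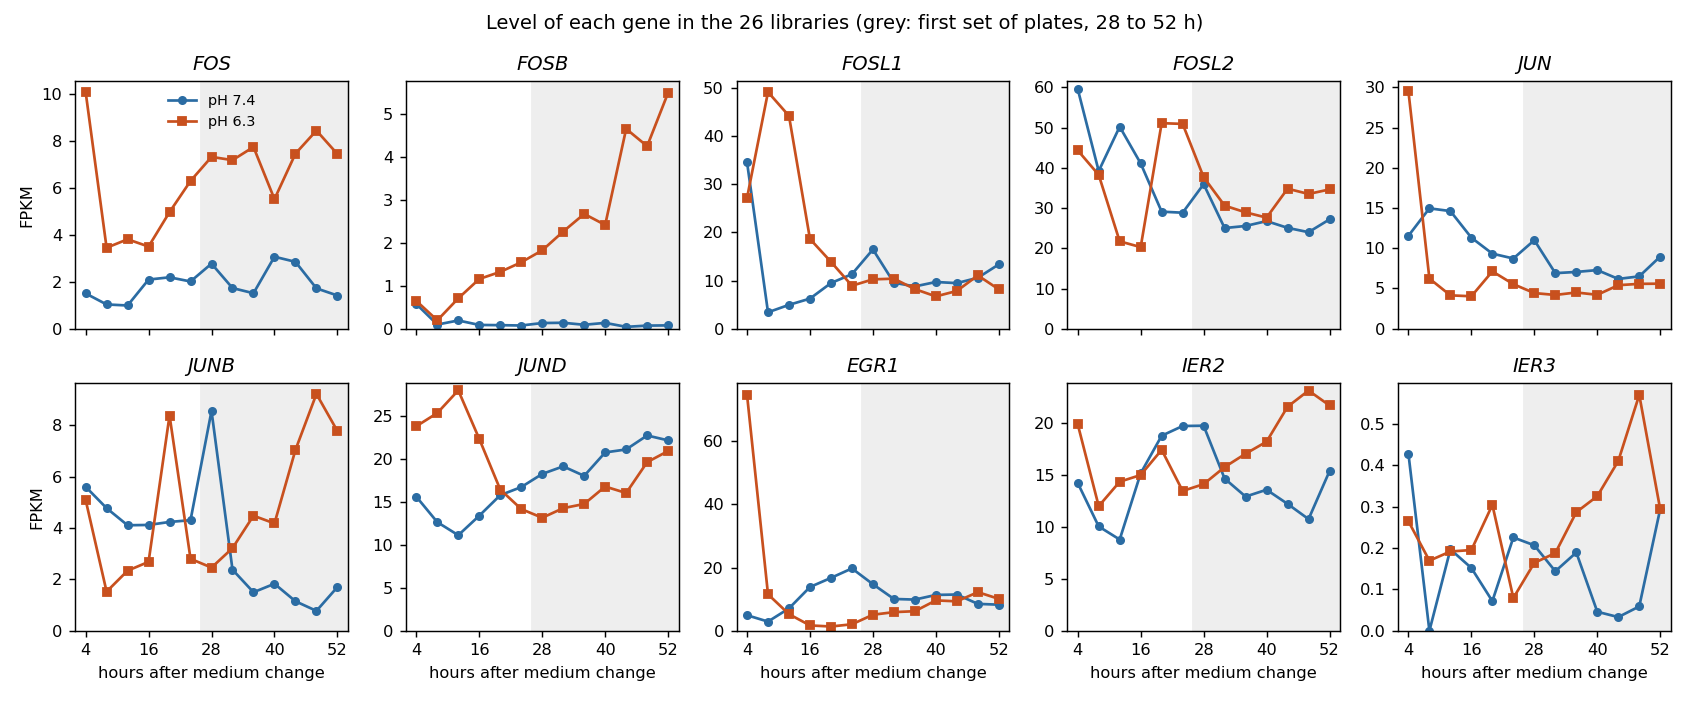
FPKM (vertical axis, each panel with its own range) against hours after the medium change (horizontal axis) for the 10 genes, with 1 point per library, circles for pH 7.4, squares for pH 6.3 and grey behind the first set of plates (28 to 52 h). At pH 6.3 FOS lies above pH 7.4 at all 13 times and JUN below it at 12, and EGR1 and FOSL1 cross.

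The first comparison set the acidic against the neutral libraries over all 13 times. FOS and FOSB were higher at pH 6.3 and JUN was lower. The other 6 tested genes (FOSL1, FOSL2, JUNB, JUND, EGR1 and IER2) did not pass the test, and each of them was above pH 7.4 at some times and below it at others. Thus 2 of the 9 tested genes were called higher, where 22.4% of 11838 tested genes were, and 1 was called lower, where 37.3% were. FOSB, among those called higher, was tested only through its values at pH 6.3. The count of increases and the median of the 9 genes depend on that. Over all tested genes 59.7% were called in one direction or the other, so 3 of 9 is no larger a share than that of the transcriptome. The median difference was 0.26 on the log2(FPKM + 1) scale over the 9 genes and -0.12 over all tested genes. Quantile normalization moved the latter to -0.02, and with it the share of calls that were increases from 37.5% to 48.1%. Calls are at an adjusted p below 0.05 from limma with the time point as a block and Benjamini-Hochberg adjustment over all 11838 genes.

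FOS (ENSG00000170345, chromosome 14, 75278774 to 75282230 in GRCh38), the founding member of its family and a partner of all JUN proteins, had few transcripts at pH 7.4. Its lowest, median and highest values there were 0.992, 1.74 and 3.07 FPKM, and at pH 6.3 they were 3.46, 7.20 and 10.1 FPKM. The 2 groups did not overlap, a pattern that 1.28% of the tested genes showed in this direction, and FOS was higher at 13 of 13 times, as were 4.43% of tested genes. In the other direction these shares were 2.37% and 8.19%, and no member of the 9 was among those genes. The highest library was pH 6.3 at 4 h, and the lowest of that pH was at 8 h, followed by 16 h and 12 h. From 28 h on, pH 6.3 held between 5.53 and 8.46 FPKM while pH 7.4 held between 1.42 and 3.07 FPKM. The means were 1.92 ± 0.668 and 6.42 ± 2.04 FPKM (SD, n = 13), a ratio of 3.34. The difference was 1.33 ± 0.13 on the log2 scale (SE, limma, adjusted p = 1.09e-06). It was 1.21 within 4 to 24 h (adjusted p = 0.000334) and 1.42 within 28 to 52 h (adjusted p = 1.02e-05).

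FOSB (ENSG00000125740, chromosome 19, 45467995 to 45475179), which forms AP-1 with JUN proteins and also exists as a short spliced form that these gene-level values do not separate, was nearly absent at pH 7.4. There its lowest, median and highest values were 0.0436, 0.0916 and 0.576 FPKM, the highest at 4 h. At these depths 1 fragment is worth about 0.0078 to 0.0285 FPKM of FOSB if its longest transcript is assumed, so the low values rest on few fragments. At pH 6.3 FOSB stood at 0.648 FPKM at 4 h and 0.195 FPKM at 8 h, and later at 1.55 FPKM at 24 h, 2.26 FPKM at 32 h, 4.66 FPKM at 44 h and 5.50 FPKM at 52 h. At 4 h the media were close, and from 16 h on every library of pH 6.3 was above every library of pH 7.4. The groups as a whole overlapped, since pH 7.4 at 4 h exceeded pH 6.3 at 8 h. Means were 0.139 ± 0.137 and 2.24 ± 1.64 FPKM (SD, n = 13). The log2 difference was 1.35 ± 0.20 (SE, limma, adjusted p = 3.88e-05), a scale that understates the change of a gene this low. With a pseudocount of 0.1 in place of 1 it was 3.04. Within 4 to 24 h it was 0.67 (adjusted p = 0.014), a call that ended when the pair of 16 h (adjusted p = 0.0508), 20 h (0.0514) or 24 h (0.0533) was left out, and within 28 to 52 h 1.93 (adjusted p = 8.65e-07).

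FOSL1 (ENSG00000175592, chromosome 11, 65892049 to 65900573), which encodes FRA1, a FOS relative without the transactivation domain and a target of AP-1 itself, changed places between the media. At 4 h it was high in both, with 34.6 FPKM in neutral and 27.2 FPKM in acidic medium. By 8 h the neutral value was 3.41 FPKM and the acidic one 49.2 FPKM, and the 12 h values were 4.96 and 44.2 FPKM. The 8 h difference of 3.51 on the log2 scale was exceeded by 5 of the 11838 tested genes, and that of 2.92 at 12 h by 16. The 8 h pair holds the shallow library of pH 6.3 and the 12 h pair that of pH 7.4. By 24 h pH 6.3 had come to 8.93 FPKM and pH 7.4 to 11.3 FPKM, and from 28 h on the media overlapped, at 8.79 to 16.5 and 6.72 to 11.1 FPKM. Over the whole course the difference was 0.45 ± 0.33 (SE, limma, adjusted p = 0.247). Within 4 to 24 h it was 1.29 (adjusted p = 0.0184), and the call ended without the 8 h pair (adjusted p = 0.0725) or the 12 h pair (adjusted p = 0.0834). Without both pairs the early difference was 0.32 (adjusted p = 0.357).

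FOSL2 (ENSG00000075426, chromosome 2, 28392448 to 28417312), which encodes FRA2 and was the most abundant FOS gene in every library but pH 6.3 at 8 and 12 h, had nearly equal means of 33.7 ± 11.1 FPKM at pH 7.4 and 35.0 ± 9.68 FPKM at pH 6.3 (SD, n = 13). The courses differed in shape. At pH 7.4 the highest value was 59.6 FPKM at 4 h, with 39.2 to 50.2 FPKM from 8 to 16 h and 24.0 to 35.9 FPKM from 28 h. At pH 6.3 FOSL2 dropped to 21.7 FPKM at 12 h and 20.3 FPKM at 16 h and then stood at 51.1 FPKM at 20 h and 50.9 FPKM at 24 h. Hence it was lower at pH 6.3 at the first 4 times and higher at the other 9. No test of FOSL2 between the media passed, with a difference over the whole course of 0.06 ± 0.15 (SE, limma, adjusted p = 0.744).

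**Figure D2:**
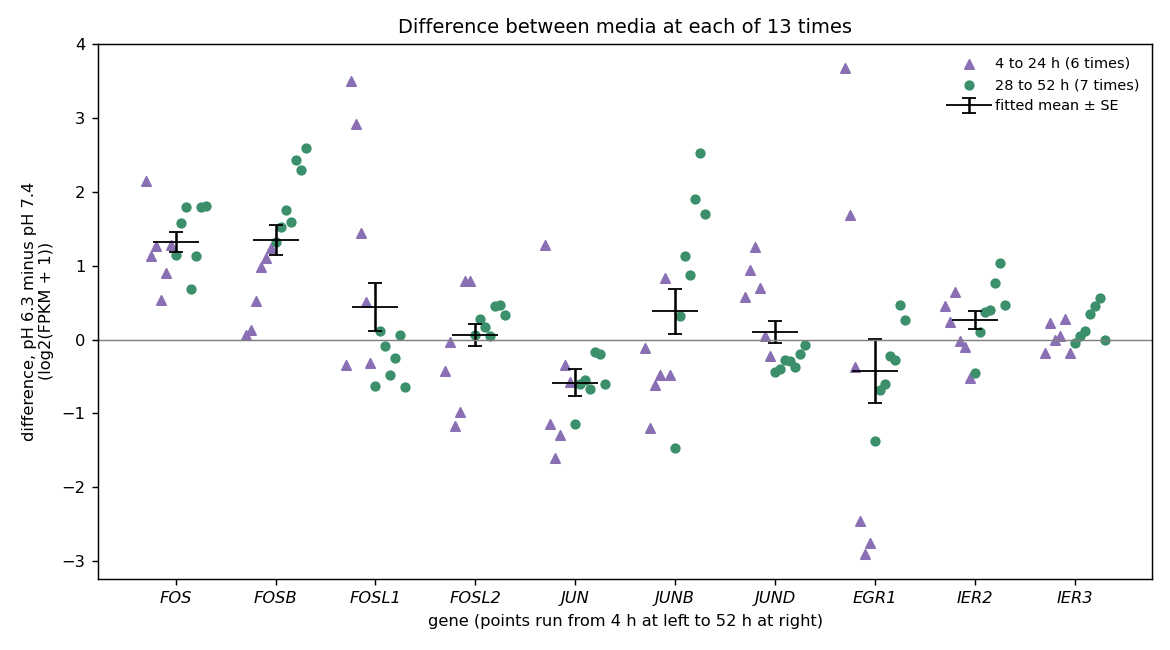
Difference pH 6.3 minus pH 7.4 in log2(FPKM + 1) (vertical axis) for each of the 10 genes (horizontal axis), with 1 point per time in order from 4 h to 52 h, triangles for 4 to 24 h, circles for 28 to 52 h, and the fitted mean ± SE in black for the 9 tested genes. FOS and FOSB stay above 0 throughout, FOSL1 peaks at 3.51 at 8 h, and EGR1 runs from 3.67 at 4 h to -2.91 at 20 h.

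Among the JUN genes, JUN (ENSG00000177606, chromosome 1, 58780788 to 58784327), the strongest activator of the family and, like the other JUN proteins, a partner with which FOS binds DNA, was lower at pH 6.3 at 12 of 13 times. The exception was 4 h, at 29.5 FPKM against 11.5 FPKM at pH 7.4. At pH 6.3 it was then 6.23 FPKM at 8 h and 4.03 to 7.13 FPKM at all later times. At pH 7.4 JUN was highest at 8 h (14.96 FPKM) and 12 h (14.6 FPKM) and lowest at 44 h (6.19 FPKM). The median was 8.97 FPKM in neutral and 5.41 FPKM in acidic medium, and the ranges overlapped. JUN differed by -0.58 ± 0.18 on the log2 scale (SE, limma, adjusted p = 0.0109). Without the 8, 12, 20 and 28 h pairs this became -0.37 (adjusted p = 0.135). Those pairs hold the shallow libraries and the libraries that lean most toward high GC content. The neutral libraries of 44 and 48 h, which lean the other way (r = -0.55 and -0.64), stayed in that fit. Within 4 to 24 h the difference was -0.61 (adjusted p = 0.0845), and without the 4 h pair -0.99 (adjusted p = 0.000558).

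JUNB (ENSG00000171223, chromosome 19, 12791496 to 12793315), a weaker activator that can restrain JUN, stood at 4.11 to 5.60 FPKM at pH 7.4 from 4 to 24 h. From 32 h on it was between 0.774 and 2.38 FPKM there, after 8.55 FPKM at 28 h. At pH 6.3 its lowest values were 1.52 FPKM at 8 h and 2.34 FPKM at 12 h, with a single high value of 8.38 FPKM at 20 h among the early times, and its highest were 7.04, 9.21 and 7.77 FPKM at 44, 48 and 52 h. JUNB was thus higher at pH 6.3 at 1 of 6 early times and at 6 of 7 late times, and the groups overlapped. Within 28 to 52 h the difference was 1.00 (limma, adjusted p = 0.0228). That call ended when the 44 h (adjusted p = 0.0702), 48 h (0.0777) or 52 h pair (0.067) was left out. Over all 13 times it was 0.38 ± 0.30 (SE, adjusted p = 0.285).

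JUND (ENSG00000130522, chromosome 19, 18279760 to 18281622), the steadily expressed JUN gene that is linked to quiescence, had the narrowest relative range of the JUN genes, 11.1 to 22.8 FPKM at pH 7.4 and 13.2 to 28.0 FPKM at pH 6.3. In acidic medium it was highest at 12 h and lowest at 28 h. In neutral medium it was lowest at 12 h and highest at 48 h. It was higher at pH 6.3 at 5 of 6 times from 4 to 24 h, by 0.55 (limma, adjusted p = 0.0116), and lower at all 7 later times, by -0.295 (adjusted p = 0.0915). The early call ended without the 12 h pair (adjusted p = 0.0525), without the 8 and 12 h pairs (0.28, adjusted p = 0.174) and after removal of a trend with GC content (0.36, adjusted p = 0.426). That trend was fitted over all tested genes of a library. JUND differences at single times ran from -0.44 to 1.26 before its removal and from -2.04 to 1.55 after it.

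EGR1 (ENSG00000120738, chromosome 5, 138465490 to 138469315), a zinc finger factor whose gene is a standard readout of ERK and SRF activity, crossed most widely. At 4 h it was 74.6 FPKM at pH 6.3 and 4.92 FPKM at pH 7.4. This difference of 3.67 on the log2 scale was exceeded by 1 of the 11838 tested genes. At 8 h the values were 11.5 and 2.91 FPKM. EGR1 then stood at 1.69, 1.36 and 2.06 FPKM at pH 6.3 at 16, 20 and 24 h, against 13.8, 16.7 and 19.7 FPKM at pH 7.4. The 20 h difference was -2.91, and 8 of the tested genes lay below it. From 40 h on both media held 8.26 to 12.2 FPKM. Its mean difference over the whole course, -0.43 ± 0.43 (SE, limma, adjusted p = 0.409), did not pass, nor did that of the early times (-0.52, adjusted p = 0.553). Without the 4 h pair the early difference was -1.36 (adjusted p = 0.0418). At 4 h FOS (10.1 against 1.51 FPKM), JUN and EGR1 were all higher at pH 6.3, where 8 tested genes had a larger difference than FOS and 72 than JUN. At the same time FOSB, JUNB and IER2 were within 0.46 of their pH 7.4 values on the log2 scale. There is 1 library per pH at 4 h, so none of these single-time differences has a replicate check.

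IER2 (ENSG00000160888, chromosome 19, 13150415 to 13154908), a small nuclear protein gene induced by serum, had lowest, median and highest values of 8.78, 14.2 and 19.7 FPKM at pH 7.4 and of 12.0, 17.0 and 23.1 FPKM at pH 6.3. It was higher at pH 6.3 at 9 of 13 times, 6 of them from 28 h on, and the groups overlapped. The difference was 0.26 ± 0.13 (SE, limma, adjusted p = 0.0806). With quantile normalization it passed, at 0.36 (adjusted p = 0.0129), and it also passed with upper-quartile scaling (adjusted p = 0.018), without the 24 h pair (adjusted p = 0.0312) and without the 28 h pair (adjusted p = 0.0322). IER3 (ENSG00000137331, chromosome 6, 30743199 to 30744554), a survival gene and NF-kB target, was listed between 0 and 0.428 FPKM at pH 7.4 and between 0.0793 and 0.570 FPKM at pH 6.3. One fragment of IER3 is worth about 0.0241 to 0.0885 FPKM, so a library held few fragments of it. IER3 was higher at pH 6.3 at 8 of 13 times, and with no filter on low values its difference was 0.13 (limma, adjusted p = 0.0974).

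The make-up of the 2 families followed from these levels, since FPKM is a value per length. The 4 FOS genes summed to 47.1 ± 16.3 FPKM at pH 7.4 and 60.9 ± 14.8 FPKM at pH 6.3 (SD, n = 13). FOSL2 made up 71.8% of that sum on average at pH 7.4 and 58.2% at pH 6.3. The mean share of FOS was 4.43% and 11.1%, and that of FOSB 0.264% and 4.12%. FOSL1 reached its highest share, 62.7%, at pH 6.3 at 12 h, the library in which FOSL2 had its lowest, 30.8%. From 28 h on at pH 6.3, FOS made up 12.85% to 16.3% and FOSB 3.20% to 9.86% of the sum.

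The 3 JUN genes summed to nearly the same mean in both media, 30.5 ± 2.85 and 30.6 ± 9.85 FPKM. JUND was the largest share on average, 57.8% at pH 7.4 and 63.4% at pH 6.3, and JUN made up 31.2% and 20.8%. The library of pH 6.3 at 4 h stood apart, with the highest sum of 58.4 FPKM and JUN at 50.5% of it. At pH 7.4 JUND was above JUN at 4 h (47.7% against 35.2%) and at every time from 16 h on, reaching 75.8% at 48 h, when JUN held 21.7%. At 8 and 12 h JUN held the larger share, 46.2% and 49.0% against 39.1% and 37.3%, and the neutral 12 h library is the shallowest. The shares of 1 library sum to a whole, so they are not independent of each other, and they are given without a test.

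**Figure D3:**
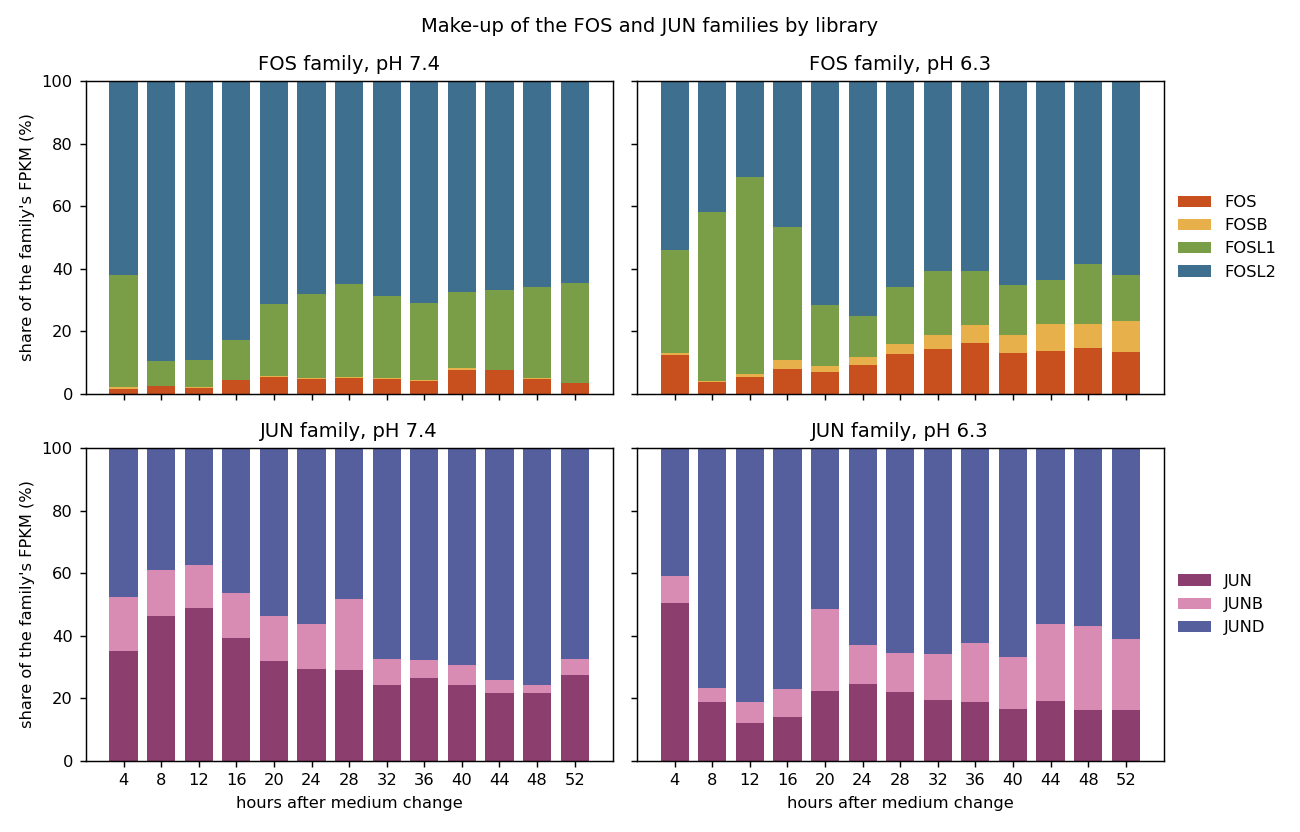
Share of the summed FPKM (percent, vertical axis) of each FOS gene and each JUN gene at the 13 times (hours, horizontal axis), with 1 stacked bar per library and the 2 media in separate panels. FOSL2 and JUND fill the largest parts of most bars, FOSL1 reaches 62.7% at pH 6.3 at 12 h and JUN 50.5% at pH 6.3 at 4 h.

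The second comparison asked whether the acid effect differed between the 2 sets of plates, that is between 4 to 24 h and 28 to 52 h. Within 4 to 24 h, FOS, FOSB, FOSL1 and JUND were called higher, 4 of 9 where 11.9% of tested genes were called higher, and no member was called lower, where 28% were. In either direction 40% of tested genes were called within 4 to 24 h, a share near 4 of 9. Within 28 to 52 h, FOS, FOSB and JUNB were called higher, 3 of 9 where 25.2% were, and again none lower, where 33.4% were; in either direction 58.6% of tested genes were called. JUN narrowly missed in both, at adjusted p = 0.0845 and 0.0671. Of the early calls over all genes 29.9% were increases, and 45.5% after quantile normalization. Tested directly, the difference between the sets was called for 2 of 9 genes, where 17.1% of tested genes were called, 10.5% upward and 6.56% downward. Upward calls were 61.6% of these, and 51.5% after quantile normalization. The acid effect of FOSB was larger in the late set by 1.26 ± 0.27 (SE, limma, adjusted p = 0.00663) and that of JUND was lower there, by -0.85 ± 0.21 (adjusted p = 0.0147). Without the 8 and 12 h pairs both calls ended, FOSB at 1.08 (adjusted p = 0.0543) and JUND at -0.57 (adjusted p = 0.0841). After the GC correction the JUND value was -0.75 (adjusted p = 0.268). FOSL1 (-1.56, adjusted p = 0.0596) and JUNB (1.34, adjusted p = 0.0846) did not pass. JUNB did after the GC correction (adjusted p = 0.00263), and without the time block both passed, FOSL1 at adjusted p = 0.0264 and JUNB at 0.0309. In all, FOSL1 passed under 4 of 23 other settings and JUNB under 5 of 22. Leaving out 1 pair was enough in some, as the 24 h pair for FOSL1 (adjusted p = 0.0205) and the 28 h pair for JUNB (0.00628).

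Change over time within a medium was the third comparison, as 28 to 52 h minus 4 to 24 h. At pH 7.4 only JUND was called, higher late by 0.49 (limma, adjusted p = 0.0231), 1 of 9 where 7.59% of tested genes were called, 4.44% higher and 3.14% lower. At pH 6.3 there were 4 of 9 called, where 41.6% of tested genes were, 25% higher and 16.6% lower. Upward calls were 60% of these, and 49.8% after upper-quartile scaling. FOSB was higher late by 1.16 (adjusted p = 1.62e-05) and FOS by 0.46 (adjusted p = 0.0488). Here too FOSB was tested only through its values at pH 6.3. FOSL1 was lower by -1.28 (adjusted p = 0.00551) and JUND by -0.35 (adjusted p = 0.0396). The FOS call was lost under 16 of 21 other settings (adjusted p up to 0.536) and the JUND calls under 12 of 22 at pH 6.3 and 9 of 22 at pH 7.4. That of FOSL1 was lost without the 8 and 12 h pairs (-0.78, adjusted p = 0.0622). The 2 comparisons over time share no library, but both are confounded with the set of plates.

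JUNB and IER2, with transcript GC contents of 64.9% and 64.0%, moved across libraries with how each library leaned by GC content. Over the 26 libraries the log2 level of JUNB correlated with that lean at Pearson r = 0.70 (permutation p = 4e-05, adjusted over 9 genes 0.00036) and Spearman rho = 0.58 (permutation p = 0.00216, adjusted 0.00972). IER2 gave r = 0.52 (permutation p = 0.00648, adjusted 0.0292) and rho = 0.59 (permutation p = 0.00157, adjusted 0.00972). The permutations shuffled the 26 libraries freely across media, times and sets of plates. Libraries in a time course need not be exchangeable in this way, so these p-values are descriptive. The lean was itself computed from gene deviations against GC content, so for genes of high GC content as a group a relation is partly built in. Without the 2 libraries farthest from the median (pH 7.4 at 28 h and at 48 h), r was 0.58 for JUNB and 0.41 for IER2. Within pH 7.4 r was 0.82 for JUNB and 0.63 for IER2, and within pH 6.3 it was 0.49 and 0.26. Within the 4 to 24 h libraries it was 0.45 and 0.53, and within the 28 to 52 h libraries 0.78 and 0.76. For the other 7 tested genes the adjusted p was 0.189 or more for Pearson's r and 0.171 or more for rho. Among them was JUND, whose GC content of 69.7% is above that of JUNB and IER2. It gave r = 0.01 (permutation p = 0.966, adjusted 0.968) and rho = 0.15. The part of this lean in the late JUNB difference was not tested as a cause. After removal of the trend with GC content JUNB was higher at pH 6.3 at 6 of 7 late times, FOS at 13 of 13 times and FOSB at 12 of 13. JUNB differences at single times ran from -1.47 to 2.53 before its removal and from -1.17 to 1.83 after it.

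**Figure D4:**
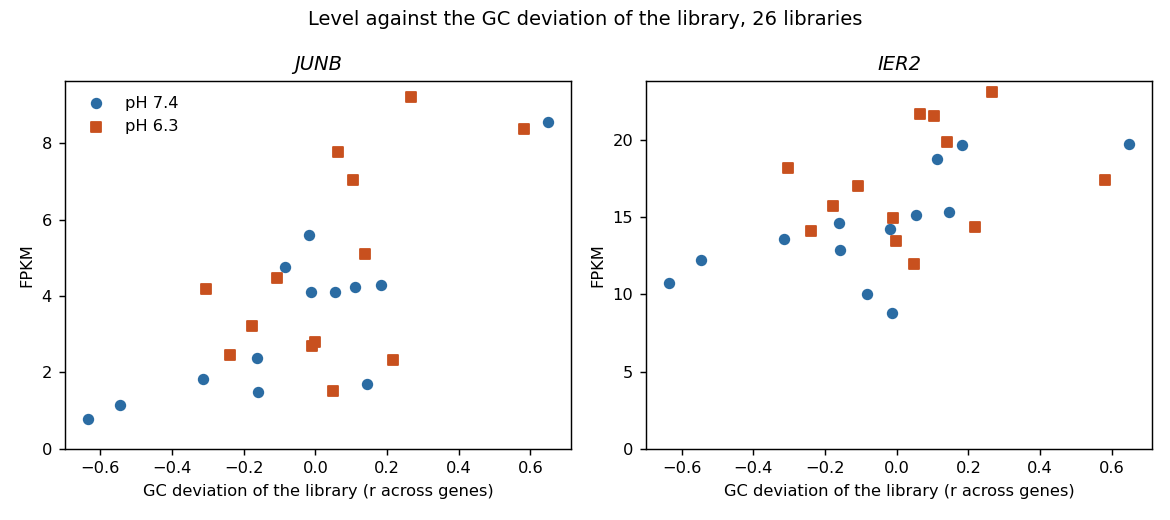
Level of JUNB and IER2 (FPKM, vertical axis) against the correlation across genes of a library's deviations with transcript GC content (horizontal axis), with 1 point per library, circles for pH 7.4 and squares for pH 6.3. On the log2 scale r is 0.70 for JUNB and 0.52 for IER2 over the 26 libraries.

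Around these genes, 4 lists of the same pathway were read in the whole-course comparison. Of 20 tested among 27 other immediate early genes, 14 rose at pH 6.3, none fell and 6 did not pass, with a median difference of 0.68. Over all tested genes 22.4% were called higher and 37.3% lower, the shares to set beside each of the 4 lists. All 13 times were higher for CYR61, which encodes a matricellular protein and went from 58.1 ± 22.3 to 381 ± 314 FPKM (limma, 2.46 ± 0.21, adjusted p = 2.53e-07), and for DUSP1, the phosphatase that inactivates MAP kinases, from 30.8 ± 18.7 to 153 ± 28.5 FPKM (2.45 ± 0.15, adjusted p = 1.16e-08). Of 9 tested among 12 other leucine zipper partners of AP-1, 5 rose, 1 fell and 3 did not pass (median 0.90). With no filter on low values 11 were tested, and the median was 0.14 with 6 called higher and 1 lower. ATF3, a stress-induced partner of JUN, rose from 5.41 ± 3.40 to 30.6 ± 15.6 FPKM and MAFF, a small MAF protein gene, from 4.95 ± 2.40 to 17.6 ± 10.6 FPKM. MAF, a large MAF factor, fell from 17.0 ± 3.72 to 6.71 ± 2.06 FPKM.

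The upstream regulators, SRF with its cofactors and the MAP kinases, split. Of 22 tested, 7 rose, 9 fell and 6 did not pass, with a median of -0.145, close to the -0.124 of all tested genes. Over all tested genes 22.4% were called higher and 37.3% lower, 59.7% together, and 9 of 22 is near the share called lower. MAP2K1, the gene of the ERK kinase MEK1, rose from 31.6 ± 5.11 to 55.0 ± 6.99 FPKM, and MAP2K3, a p38 kinase kinase gene, from 14.1 ± 8.78 to 22.7 ± 4.68 FPKM. MAP2K6, also a p38 kinase kinase gene, fell from 7.40 ± 4.08 to 1.03 ± 1.22 FPKM, and MKL2, an SRF cofactor gene, from 17.4 ± 3.10 to 7.15 ± 1.81 FPKM. Of 16 tested among 19 textbook AP-1 target genes, the test called 8 higher and 3 lower, and 5 did not pass (median 0.47). PLAUR, the urokinase receptor gene, rose from 19.6 ± 6.86 to 44.3 ± 15.3 FPKM, and the chemokine gene CXCL8 rose by 1.54 ± 0.43 (adjusted p = 0.00591), with 11.5 ± 29.3 and 20.0 ± 15.3 FPKM and higher values at 12 of 13 times. CCND1, the cyclin D1 gene, fell from 24.1 ± 5.69 to 12.9 ± 6.18 FPKM. Over 23 other settings the 14 immediate early genes that rose ranged from 11 to 17 and the AP-1 targets that rose from 6 to 9. Some genes reached the filter on low values only through pH 6.3, where they are high, so these counts depend on it. Named for this after their values were seen, they are NR4A2 and IER5L among the 14 immediate early genes and MMP3 and IL6 among the 8 targets. With a minimum mean of 5 FPKM, 11 of 16 immediate early genes and 6 of 12 targets were called higher. VIM, a mesenchymal marker, is on the target list and was not called (0.08, adjusted p = 0.447).

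**Figure D5:**
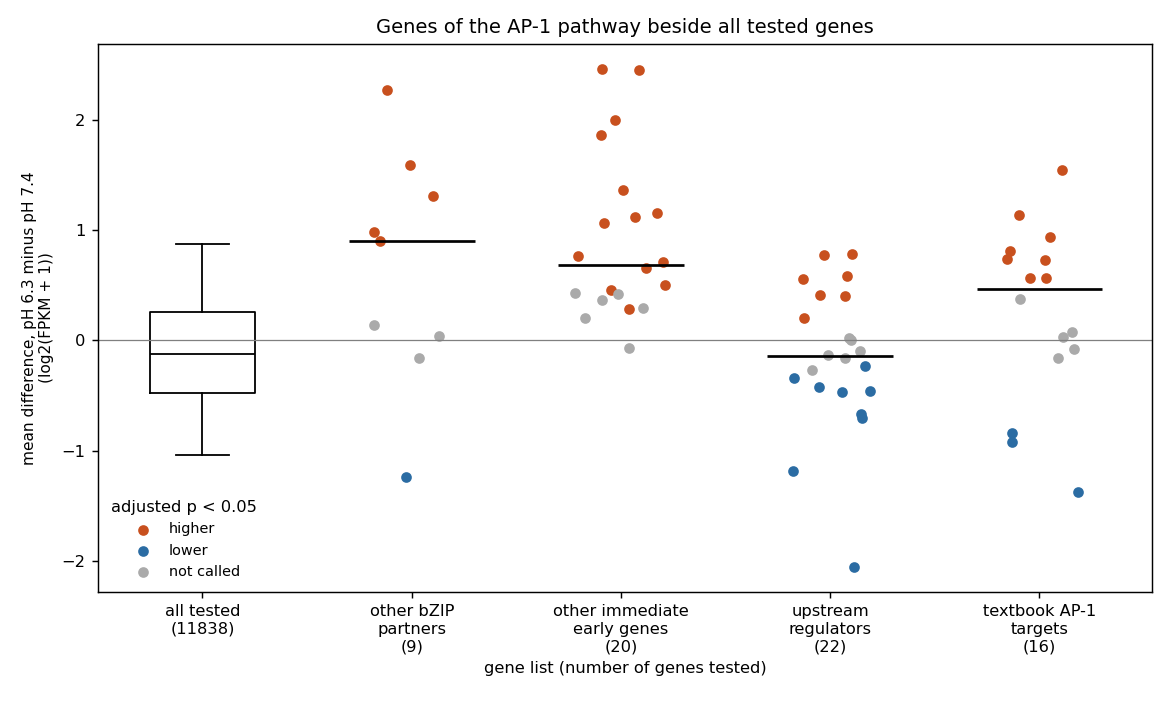
Mean difference pH 6.3 minus pH 7.4 in log2(FPKM + 1) (vertical axis) for each tested gene of the 4 lists (horizontal axis), coloured by call, with list medians as black bars and, at the left, a box of all 11838 tested genes (median and quartiles, whiskers from the 5th to the 95th percentile). The other immediate early genes have a median of 0.68 against -0.12 for all tested genes, and the upstream regulators one of -0.145.

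For each tested gene, the 3 genes with the most similar profile over the 26 libraries were taken by Pearson's r of log2(FPKM + 1), as a description over libraries that share their medium, time and depth. FOS was most like NR4A2, itself an immediate early gene (r = 0.91), PRKCE (0.91) and BTG1 (0.90). FOSB was most like DGKK (0.975), SOD2 (0.972) and CACNA2D2 (0.967). FOSL1 was most like RASSF5 (0.92), SH2B3 (0.89) and CBL (0.89), and JUND most like HDAC9 (0.89), ST3GAL1 and ABL2 (both 0.85). The nearest to JUN were COMMD9 (0.87), RCC1 (0.86) and MAGEA1 (0.85), and to JUNB PSMG3 (0.91), NCDN (0.90) and PRPF6 (0.89). EGR1 (KCNH5 0.85, UGT8 0.82, NUBPL 0.77) and FOSL2 (NEDD9 0.82, ANO2 0.74, SRF 0.72) had weaker matches, and IER2 was nearest to PLD3 and KIF21B (both 0.86) and ECH1 (0.82). Among the members themselves, over the 13 libraries of one pH, JUNB and IER2 went together at pH 6.3 (r = 0.92) and so did FOSL1 and JUND (0.81). FOSB and FOSL1 ran opposite at pH 6.3 (-0.83), and JUN and JUND at pH 7.4 (-0.86).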

How the data were processed

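Polyadenylated RNA of 26 cultures was sequenced from libraries of a stranded kit, per the labels' protocols. The deposited values are FPKM, made by the authors with STAR, Cufflinks and the genome build hg38, per the submitters' processing notes. Their versions, annotation and strand use are not given in these sources. Among 19806 rows, 101 symbols had more than 1 row, and the highest mean was kept. FPKM are not counts, so no count test was run. Low values of 1808 single-transcript genes, which step by whole fragments, gave the depths. Per library 87.7% to 94.4% of values up to 3.5 fragments lay within 0.1 of a whole number. No 2 libraries were identical.

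Values were tested as log2(FPKM + 1), a pseudocount of 1, which understates the change of low genes, in the 11838 genes whose mean reached 1 FPKM. The test was limma (version 3.58.1, R 4.3.3; trended empirical Bayes, 2-sided, Benjamini-Hochberg at 0.05). Time was a block, since the labels say that both media were collected together. Deviations of the 13 pairs correlated at -0.51 to 0.42 (median 0.03, 4 above 0.1). Correlations with the GC lean used 100000 permutations, shuffled freely over the 26 libraries (Python 3.11.15, SciPy 1.17.1). Steps were tested on simulated data. Identifiers, coordinates and GC content came from GENCODE 29 (GRCh38) and promoters from RefSeq; 8 of 10 genes matched (not FOSL1 and IER3).

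All 10 genes are named, with up to 2 increases and 2 decreases per list at 5 FPKM or more in the higher group and the 3 nearest profiles; a gene that this rule took is not reported here. Members and lists were chosen with earlier results of these data known. Alternatives were other pseudocounts, filters, scalings, a GC correction, robust variances, no time block and leaving out pairs of libraries.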

Additional observations from a re-analysis of the deposited data

Results flagged for a closer look

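For 2 of the 9 tested genes the test of the difference itself found an acid effect that was not the same in the 2 sets of plates, where 17.1% of all tested genes were called. The acid effect of FOSB was larger from 28 to 52 h than from 4 to 24 h by 1.255 on the log2 scale (limma, adjusted p = 0.00663), with pH 6.3 higher at 6 of 6 early and 7 of 7 late times. That of JUND was lower in the late set by -0.847 (adjusted p = 0.0147), with pH 6.3 higher at 5 of 6 early times and at 0 of 7 late times. Without the 8 and 12 h pairs neither passed (adjusted p = 0.0543 for FOSB and 0.0841 for JUND). FOSB was among the tested genes only through its values at pH 6.3. Early time and set of plates cannot be told apart.

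The same test passed for 4 genes named from the lists, where 17.1% of all tested genes were called. The named genes were picked by their whole-course differences in these data. In the whole lists the test called 3 upward and 6 downward of 20 other immediate early genes, and 4 and 4 of 16 AP-1 targets. Of 22 upstream regulators it called 3 downward and none upward, and of 9 leucine zipper partners none. The late minus early acid effect was -1.312 for CYR61 (limma, adjusted p = 0.0058), which was higher at pH 6.3 at 13 of 13 times. It was -1.899 for MAP2K6 (adjusted p = 0.00602) and -1.235 for CCND1 (adjusted p = 0.000799), each lower at pH 6.3 at 12 of 13 times. The MAP2K6 call ended without the 8 and 12 h pairs (-1.67, adjusted p = 0.053) and without the 8, 12, 20 and 28 h pairs (-1.86, adjusted p = 0.0616). The value was 2.686 for CXCL8 (adjusted p = 0.00697), whose acid effect was 0.10 early and 2.78 late.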

How the results depend on the processing

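Over 22 other settings FOS was called higher at pH 6.3 each time, at 1.26 to 1.69 on the log2 scale (limma, adjusted p up to 7.21e-05), and FOSB at 1.25 to 3.04 (adjusted p up to 0.000166). JUN lost its call only without the 8, 12, 20 and 28 h pairs, where JUNB gained one (0.82, adjusted p = 0.0347). That setting kept the 44 and 48 h pairs, whose neutral libraries lean away from high GC content. The difference over all times changed sign, in neither case called, for FOSL1 without the 8 and 12 h pairs (-0.056) and without the 8, 12, 20 and 28 h pairs (-0.055). For JUND it did so with the GC correction (-0.042), without the 8 and 12 h pairs (-0.087), without the 8, 12, 20 and 28 h pairs (-0.063) and without the 12 h pair (-0.001); leaving out 1 pair at a time gave JUND -0.001 to 0.141. The cause was not tested. Without the time block, that is without the pairing of media by time, calls over all genes numbered 7177 for the whole course (7066 with it), 5240 and 7337 for the early and late sets and 2717 for their difference. Among the 10 genes this added IER2 from 28 to 52 h (adjusted p = 0.0383), FOSL1 and JUNB.

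Counts over all genes moved by more than 1.5 times under some settings. Without the 8, 12, 20 and 28 h pairs, 1340 genes were called early (4730 with all pairs), 699 for the difference between sets (2025 with all) and 3011 for change over time at pH 6.3 (4926 with all). Without the 8 and 12 h pairs these were 707 for the difference between sets, 316 for change over time at pH 7.4 (898 with all) and 3121 at pH 6.3. The GC correction gave 3083 for the difference between sets and 1406 for change at pH 7.4. Leaving out 1 pair at a time gave 1291 to 2651 and 579 to 1690 for those 2 counts, the lowest without the 12 h and the 8 h pair and the highest of the second without the 28 h pair; without the 44 h pair it was 584. Fewer libraries are fitted when pairs are left out, but not with the GC correction. Leaving out a pair moved these counts down in some cases and up in others. The cause was not tested for any of these settings. Depth limits FOSB at pH 7.4 and IER3, whose values rest on few fragments.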
